A study of Mus musculus with 4 samples.

Results

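The genes described here are 8 mouse genes of programmed cell death, namely the caspase-pathway genes Casp8ap2, Casp9 and Apaf1, the BH3-only genes Bid and Bcl2l11, the p53 relative Trp73, and the survival genes Bcl2 and Bcl2l1. They were read in prostate RNA by every array probe that carries one of these 8 gene names. Those were 17 of the 41174 probes that are not controls, printed as 35 of 43379 spots, and each of the 17 is reported whatever its value. The study asked how prostates with an Rb1 allele that codes for a protein unable to bind E2F (R654W) compare with prostates lacking Rb1.

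RNA of 4 mice aged 60 days, of a mixed strain (C57BL/6, 129/SVJae and FVB), was hybridised to 4 two-colour Agilent arrays. The 2 mutant mice were Rb1 R654W/F:Trp53 F/F:PB-cre4, with 1 R654W allele over 1 conditional (F) allele of Rb1. The 2 null mice were Rb1 F/F:Trp53 F/F:PB-Cre4, with both Rb1 alleles conditional. Both genotypes carried 2 conditional Trp53 alleles and PB-Cre4, a Cre transgene driven by the probasin promoter, which acts in prostate epithelium, so other cells of the tissue keep their conditional alleles intact. Each mouse was labelled with red Cy5 and set against the same pool of prostate RNA from 3 wild-type mice in green Cy3. The dyes were not swapped. Values are log2 ratios of mouse over pool, so 0 means the level of the pool.

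The intrinsic death pathway is governed by the Bcl2 family. Survival proteins such as Bcl2 and Bcl-xL, the product of Bcl2l1, hold back the pore formers Bax and Bak at the mitochondrial surface, and BH3-only proteins such as Bid and Bim, the product of Bcl2l11, relieve that restraint. Once cytochrome c leaves the mitochondrion, it joins Apaf1 to form the apoptosome, which activates caspase 9. E2F transcription factors, which the retinoblastoma protein binds and restrains, are known to raise transcription of several of these genes, Apaf1 and Trp73 among them.

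The probes shown first are those of Bcl2, Bcl2l1 and Bcl2l11, because the probes of 1 gene gave different readings. They are written 5′ to 3′ in the orientation printed on the array, whole for the first 3 and as the first 30 of 60 bases for the others.
Bcl2 A_51_P380013: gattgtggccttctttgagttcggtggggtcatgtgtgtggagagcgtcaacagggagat
Bcl2l1 A_52_P510877: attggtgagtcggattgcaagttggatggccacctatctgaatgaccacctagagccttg
Bcl2l11 A_51_P484880: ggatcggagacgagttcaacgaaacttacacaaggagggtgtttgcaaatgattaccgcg
Bcl2 A_52_P534870: catataatggctctttgtttgtgttgttag
Bcl2 A_52_P438280: ggagagaagctattttgtaagatgtttagt
Bcl2l1 A_52_P148861: ttattccttgtgaagatgatatactatttt
Bcl2l1 A_51_P299454: agacccagtaagtgagcaggtgttttggac
Bcl2l11 A_52_P158527: aacagcactgatctctgtatagtccccatc

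In build mm7, as the files give it, the 3 Bcl2 probes lie on the minus strand at chr1:106438098-106438157 (A_52_P534870), chr1:106610589-106610648 (A_52_P438280) and chr1:106612249-106612308 (A_51_P380013). The files assign them to transcript variant 1, to a full-length cDNA clone and to transcript variant 2. The 3 Bcl2l1 probes also lie on the minus strand, at chr2:152521752-152521811 (A_52_P148861), chr2:152570306-152570365 (A_52_P510877) and chr2:152570851-152570910 (A_51_P299454). A_52_P148861 is therefore 48.5 kb downstream of A_52_P510877, while A_52_P510877 and A_51_P299454 are 485 bases apart. The Bcl2l11 probe A_52_P158527 is on the plus strand at chr2:127903168-127903227, and A_51_P484880 spans 11096 bases of genome at chr2:127888010-127899105 with its 60 bases, so it crosses a splice junction. No annotation of mm7 was used, so exons and UTRs are not assigned.

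The E2F site was looked for in the 300-base RefSeq promoters of build GRCm38.p6 (250 bases before to 50 after a start) as TTTCCCGC, TTTCGCGC, TTTGCCGC or TTTGGCGC on both strands. All 8 genes had an entry, with 12 promoters in total, and 2 of the 12 held a match (16.7%), against 744 of all 32851 promoters (2.26%). They are shown over the 250 bases before the start, with the match in capitals. Casp8ap2 (chr4:32615220-32615519, plus strand) has it from position -176, and 1 of the 3 Bcl2l1 promoters (chr2:152830668-152830967, minus strand) has it on the other strand from position -145.
Casp8ap2 promoter: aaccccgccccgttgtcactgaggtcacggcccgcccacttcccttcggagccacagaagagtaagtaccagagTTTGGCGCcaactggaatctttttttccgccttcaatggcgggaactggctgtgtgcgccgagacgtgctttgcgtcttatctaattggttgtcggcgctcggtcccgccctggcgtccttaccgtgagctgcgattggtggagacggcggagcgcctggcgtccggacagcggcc
Bcl2l1 promoter: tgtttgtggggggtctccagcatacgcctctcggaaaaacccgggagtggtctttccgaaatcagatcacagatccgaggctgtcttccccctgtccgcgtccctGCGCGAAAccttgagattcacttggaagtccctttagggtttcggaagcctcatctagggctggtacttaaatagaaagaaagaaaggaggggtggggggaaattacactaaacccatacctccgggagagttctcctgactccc

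Of 10 replication and cell cycle genes used for comparison as standard E2F targets, 9 had a promoter entry and 4 of those held a match (44.4%). Such a match is a stretch of letters and not a measured binding site, and these 8 letters cover only part of the known forms of the E2F site.

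The arrays differed in brightness, and null mouse 1 stood apart. Between 25034 and 26119 probes were well above background in the mouse channel of the other 3 mice, against 22168 in null mouse 1, whose median background-subtracted red signal was 20.53, against 55.07 to 90.06 in the other 3. Heat shock and stress genes had a median log2 ratio of 2.46 in null mouse 1, against 0.19 and -0.17 in mutant mice and 0.04 in null mouse 2. Genes of the seminal vesicle, a gland that adjoins the prostate, were below the pool in all 4 mice at each of the 5 tested, with medians of -4.13 and -0.79 in mutant mice and of -5.29 and -3.72 in null mice. Prostate epithelial genes were present, with 9 of 9 matched genes tested and medians of 0.28 and 0.04 in mutant mice and of -0.03 and -0.19 in null mice. Among them, Pbsn read 1.18 and 0.92 in mutant mice and 0.34 and -0.21 in null mice, while Sbp read -0.59 and -0.89 in mutant mice and -4.17 and 0.09 in null mice. Basal epithelial genes, 4 tested, had medians of -0.27 and -0.37 in mutant mice and of 1.06 and -0.05 in null mice. Smooth muscle genes had medians of -0.13 and -0.52 in mutant mice and of 0.16 and -0.09 in null mice, and 5 of the 6 were lower in mutant mice without overlap. Macrophage genes had medians of 0.85 and 0.78 in mutant mice and of -0.20 and 1.41 in null mice, with all 6 tested. The Rb1 probe gave -0.65 and -0.24 in mutant mice and 0.09 and -0.87 in null mice, and the brighter Trp53 probe gave 0.14 and 0.12 in mutant mice and 0.53 and 0.08 in null mice. The other Trp53 probe gave -0.08 and -0.27 in mutant mice and -0.05 and -0.40 in null mice. None of these probes was placed within or outside the deleted segments, so they do not check the genotypes. Such bulk ratios do not separate a change in the number of cells of a type from a change in RNA per cell. The part of these tissue differences in the values below was not tested.

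No probe of the 8 genes passed the test between the genotypes. Of the 17 probes 13 passed the filter on dim probes and were tested with limma, and 0 of the 13 had an adjusted p under 0.05 between mutant and null, as did 0.00% of all 24851 probes tested. At an unadjusted p under 0.05 the count was 1 of 13 member probes against 2.19% of all tested. With 2 mice against 2 an exact permutation cannot go below 0.333, and p-values here measure only the spread between these mice. The fitted differences ran from -0.34 to 0.50 over the 13 probes, with a median of 0.06 against 0.02 over all tested probes. Their median absolute size was 0.27, against 0.17 over all. The 95% intervals of the 13 differences, shown in the plot of differences between the genotypes, reached as low as -1.23 and as high as 1.03.

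**Figure D1:**
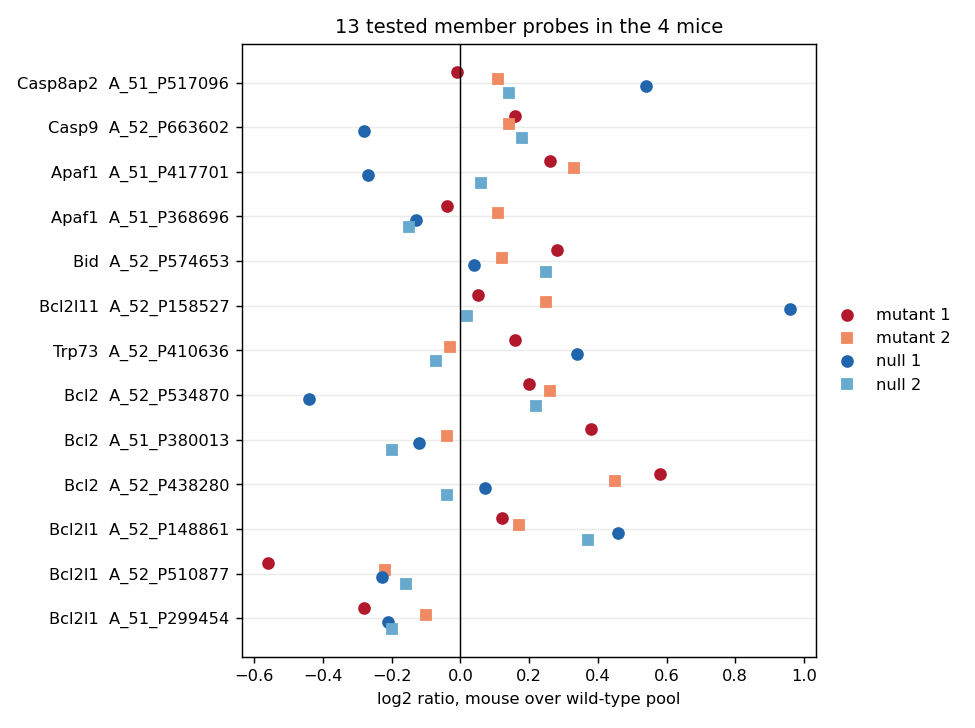
Log2 ratio of mouse over wild-type pool (x axis) for each of the 13 tested probes of the 8 genes (rows), with 1 point per mouse, mutant in red and null in blue. Null mouse 1 is the point farthest right for Bcl2l11 (0.96) and Casp8ap2 (0.54) and farthest left for the Bcl2 probe A_52_P534870 (-0.44).

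**Figure D2:**
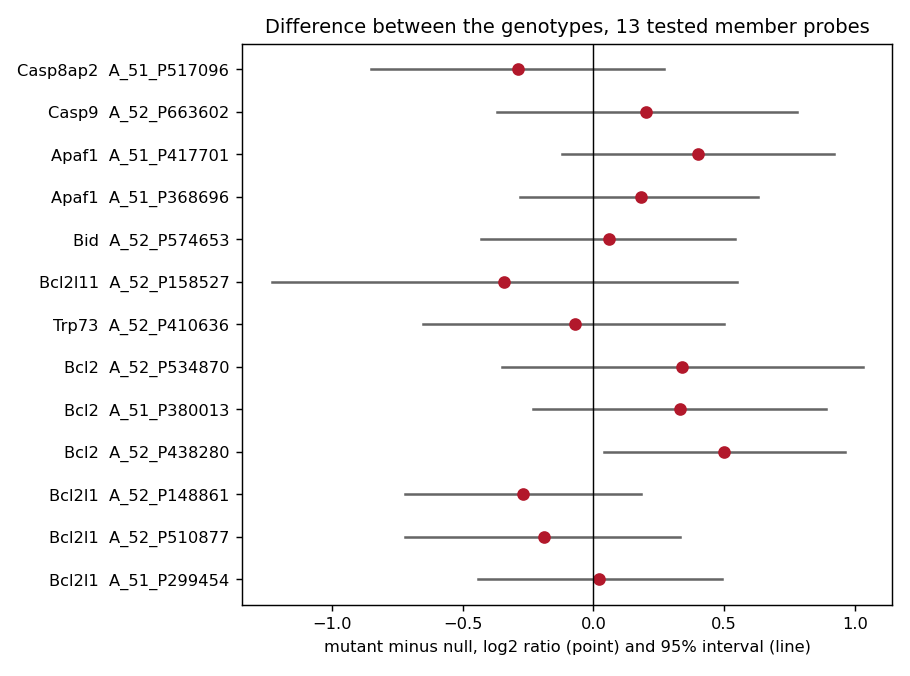
Fitted difference of mutant minus null in log2 ratio (point) with its 95% interval from limma (line) for the 13 tested probes, 2 mice per genotype. The interval of the Bcl2 probe A_52_P438280, from 0.04 to 0.96, is the only 1 of the 13 that leaves out 0 before adjustment.

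Genes of the apoptosome came first. Casp9, the initiator caspase of the mitochondrial route (chr4:141194312-141194371), had log2 ratios of 0.16 and 0.14 in mutant mice, against -0.28 and 0.18 in null mice. The 2 mutant mice and null mouse 2 lay within 0.03 of each other, a little above the pool, and null mouse 1 lay below it, so the genotypes overlapped. Its difference of 0.20 ± 0.22 (SE) had an adjusted p of 0.984 in limma, and it was -0.02 without null mouse 1.

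Apaf1, the scaffold of the apoptosome, had 3 probes on chromosome 10. The brighter tested probe, A_51_P417701 (chr10:90548607-90548666, transcript variant 1), gave 0.26 and 0.33 in mutant mice, against -0.27 and 0.06 in null mice. Both mutant mice were above both null mice, with a difference of 0.40 ± 0.20 (SE, 95% interval -0.12 to 0.92, adjusted p = 0.984 in limma). The difference was 0.23 without null mouse 1, whose background-subtracted red signal was 45.36, against 216.7 to 370 in the other mice. Probe A_51_P368696 (chr10:90549877-90549936), 1210 bases away, gave -0.04 and 0.11 in mutant mice, against -0.13 and -0.15 in null mice. The difference was 0.18 ± 0.18 (SE, adjusted p = 0.984 in limma). This dim probe was well above background in both mutant mice, in 1 of 2 null mice and in the pool on only 1 of 4 arrays. It passed the filter through the mutant mice alone, which favours a higher mutant reading, so it is no second reading of the difference at the brighter probe. The third probe, A_52_P621991, was above background on no array in either channel and was not tested; its ratios ran from -0.14 to 0.17.

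Casp8ap2, also called FLASH, is a caspase 8 partner that also serves in histone pre-mRNA processing (probe at chr4:32931230-32931289). It gave -0.01 and 0.11 in mutant mice, against 0.54 and 0.14 in null mice. Both mutant mice were below both null mice, although mutant mouse 2 and null mouse 2 were close and only null mouse 1 was far above. The difference was -0.29 ± 0.22 (SE, adjusted p = 0.984 in limma), and it was -0.09 without null mouse 1. Its promoter is the one shown above with an E2F match at -176.

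Trp73 encodes p73, a relative of p53 that can activate death genes. Its tested probe A_52_P410636 (chr4:153048476-153048535) gave 0.16 and -0.03 in mutant mice, against 0.34 and -0.07 in null mice. The genotypes overlapped, with a difference of -0.07 ± 0.22 (SE, adjusted p = 0.991 in limma). The other probe, A_52_P193555, was above background only in null mouse 2 and was not tested; its ratios lay between -0.06 and 0.03.

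Bid is the BH3-only protein that caspase 8 cleaves to link death receptors to the mitochondrion (probe at chr6:120918747-120918806). It gave 0.28 and 0.12 in mutant mice, against 0.04 and 0.25 in null mice. All 4 mice were above the pool and the genotypes overlapped, with the smallest between-genotype difference among the brightest probes of the 8 genes, 0.06 ± 0.19 (SE, adjusted p = 0.991 in limma). Over the 4 mice its mean was 0.17 ± 0.11 (SD, n = 4, adjusted p = 0.392 against the pool in limma).

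Bcl2l11 gave the widest range over the 4 mice. Probe A_52_P158527 read 0.05 and 0.25 in mutant mice, against 0.96 and 0.02 in null mice. Null mouse 1 was far above the other 3, which stayed between 0.02 and 0.25, so the genotypes overlapped. The difference of -0.34 ± 0.35 (SE, adjusted p = 0.984 in limma) turned to 0.13 without null mouse 1. The other 2 Bcl2l11 probes are A_51_P484880 and A_52_P348214 (chr2:127869853-127870534), whose 60 bases span 11096 and 682 bases of genome, so both cross a junction. These 2 probes were above background only in mutant mouse 1 and were not tested. In null mouse 1 they read 0.13 and -0.03, so the high value of A_52_P158527 had no second reading above background in that mouse.

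Bcl2, the founding survival gene of the family, was read by 3 probes. Probe A_52_P534870, printed as 10 spots, gave 0.20 and 0.26 in mutant mice, against -0.44 and 0.22 in null mice. Both mutant mice and null mouse 2 sat together above the pool, and null mouse 1 was far below. The spread among the repeated spots was small, with an SD of 0.05 and 0.04 in mutant mice and 0.07 and 0.06 in null mice, so null mouse 1 was separated from the rest by more than spot-to-spot error on its array. Spots of 1 array are technical repeats and say nothing of the spread between mice. The difference of 0.34 ± 0.27 (SE, adjusted p = 0.984 in limma) was 0.02 without null mouse 1.

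**Figure D3:**
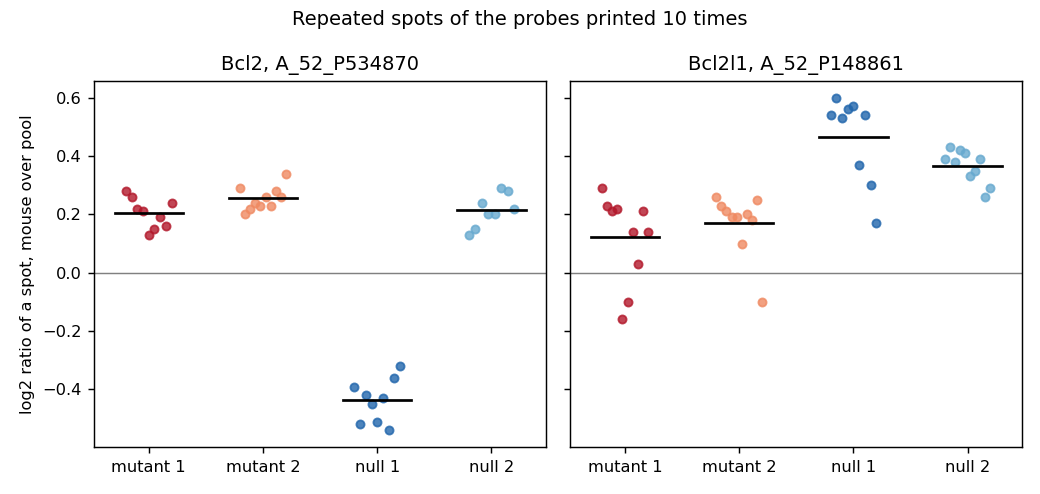
Log2 ratio of mouse over pool for each unflagged spot (points) of the probes of Bcl2 (left) and Bcl2l1 (right) that are printed as 10 spots per array, in mutant mice 1 and 2 and null mice 1 and 2, with the mean of the spots (bar). Null mouse 1 averages -0.44 for Bcl2 and 0.46 for Bcl2l1.

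The 2 other Bcl2 probes lay 1600 bases from each other and over 172 kb from the first. Probe A_51_P380013 read 0.38 and -0.04 in mutant mice, against -0.12 and -0.20 in null mice. Mutant mice were above null mice without overlap, although mutant mouse 2 was close to null mouse 1, and the difference was 0.33 ± 0.22 (SE, adjusted p = 0.984 in limma). Probe A_52_P438280 read 0.58 and 0.45 in mutant mice, against 0.07 and -0.04 in null mice.

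Probe A_52_P438280 gave the widest difference between the genotypes of all member probes, and both null mice lay at the level of the pool. The difference was 0.50 ± 0.18 (SE), with an unadjusted p of 0.0388 and an adjusted p of 0.984 in limma. It held its direction without null mouse 1 (0.55). This is a dim probe, with background-subtracted red signals of 173.8 and 158.6 in mutant mice, against 25.96 and 21.73 in null mice, and it was well above background in the pool on 3 of 4 arrays. The size depended on the treatment of background, being 1.24 with the scanner's processed signals and 0.75 with an offset of 10, with adjusted p-values of 0.971 and 0.98 in limma. The 3 Bcl2 probes therefore shared a direction between the genotypes, while their order among mice differed: null mouse 1 was lowest at A_52_P534870 and null mouse 2 was lowest at the other 2.

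Bcl2l1, whose main product is the survival protein Bcl-xL, was read by 3 probes that placed the mice on opposite sides of the pool. The 10-spot probe A_52_P148861 gave 0.12 and 0.17 in mutant mice, against 0.46 and 0.37 in null mice. Both mutant mice were below both null mice and all 4 were above the pool, with a difference of -0.27 ± 0.18 (SE, 95% interval -0.72 to 0.18, adjusted p = 0.984 in limma). The spot SD was 0.15 and 0.11 in mutant mice and 0.15 and 0.06 in null mice, so single spots of the genotypes overlapped.

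Probe A_52_P510877 read -0.56 and -0.22 in mutant mice, against -0.23 and -0.16 in null mice. Probe A_51_P299454 read -0.28 and -0.10 in mutant mice, against -0.21 and -0.20 in null mice. At these probes all 4 mice were below the pool and the genotypes overlapped, with differences of -0.19 ± 0.20 and 0.02 ± 0.18 (SE, adjusted p = 0.984 and 0.996 in limma). Both were dimmer than A_52_P148861, with mean log2 intensities over both channels of 7.108 and 6.666 against 8.964. They were still well above background in every reading. Within an array, A_52_P148861 exceeded A_52_P510877 by 0.39 to 0.69 and A_51_P299454 by 0.27 to 0.67, in each of the 4 mice. The 2 lower probes are the 2 that lie 485 bases apart, and the higher one is about 48.5 kb away. Where a probe takes up the 2 dyes unequally, that is part of any ratio to the pool here, so the sign against the pool and a dye effect cannot be told apart. The sign also depended on the scaling. With each array centred on its median, A_52_P510877 read -0.43 and 0.07 in mutant mice, against -0.31 and 0.03 in null mice. The median tested probe then read 0.62 and 0.56 in mutant mice, against -0.04 and 0.41 in null mice. A_51_P299454 stayed below 0 in all 4 mice.

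**Figure D4:**
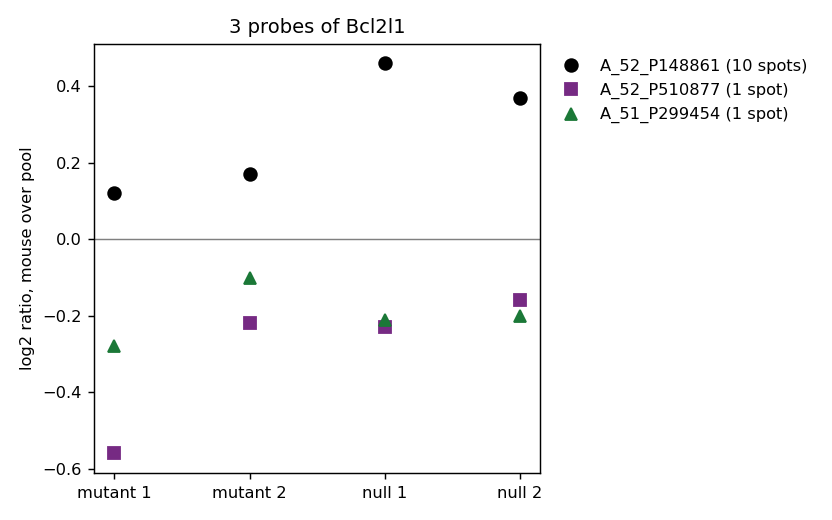
Log2 ratio of mouse over pool (y axis) at the 3 probes of Bcl2l1 in mutant mice 1 and 2 and null mice 1 and 2 (x axis). A_52_P148861 lies above 0 in all 4 mice (0.12 to 0.46) and the other 2 probes lie below 0 in all 4 (-0.56 to -0.10).

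Against the pool, no member probe was called either. The pool counts as 1 control sample, and variation among wild-type mice does not enter these tests. For mutant mice over the pool 0 of 13 member probes were called, as were 0.00% of all probes, with a smallest member adjusted p of 0.453 in limma at Bcl2 A_52_P438280 (0.51 ± 0.13, SE). For null mice over the pool 0 of 13 were called against 0.00% of all, with a smallest adjusted p of 0.473 in limma at Bcl2l1 A_52_P148861 (0.41 ± 0.12, SE). For all 4 mice over the pool 0 of 13 were called against 0.0121% of all, with a smallest adjusted p of 0.243 in limma at the same Bcl2l1 probe (0.28 ± 0.09, SE). At an unadjusted p under 0.05 the member counts were 2 of 13 in mutant mice, 1 of 13 in null mice and 3 of 13 over all 4 mice, against 10.6%, 10.2% and 17.6% of all tested probes. Those 3 probes were Bcl2 A_52_P438280 and Bcl2l1 A_52_P148861, both above the pool, and Bcl2l1 A_52_P510877, below it.

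The genotypes did not overlap at 6 of 13 member probes, 4 with mutant higher (Apaf1 and Bcl2, 2 probes each) and 2 with mutant lower (Casp8ap2 and the 10-spot Bcl2l1 probe). Of the 4, Apaf1 A_51_P368696 passed the filter only through the mutant mice. Over all tested probes 30.4% did not overlap, 16.8% with mutant higher and 13.6% with mutant lower. All 4 mice were above the pool at 3 of 13 member probes (Bid, Bcl2l11 and Bcl2l1), against 16.7% of all, and below it at 2 of 13 (both Bcl2l1), against 14.9% of all. Both mutant mice were above the pool at 7 of 13 member probes and below it at 2, against 37.2% and 29.3% of all tested. Both null mice were above it at 4 and below it at 4, against 29.2% and 27.3% of all. Probes of 1 gene share a transcript, so these counts are not of independent events.

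Null mouse 1 was often the mouse farthest out. At the brightest tested probe of each of the 8 genes it was the highest mouse at 4 (Casp8ap2, Bcl2l11, Trp73 and Bcl2l1) and the lowest at the other 4 (Casp9, Apaf1, Bid and Bcl2). Over all 13 member probes it was the highest or lowest at 8, or 61.5%, against 68.9% of all tested probes, so this position was shared with the array as a whole. The other 3 mice stayed between -0.07 and 0.37 at those 8 probes, while null mouse 1 ran from -0.44 to 0.96. For the 2 members with the widest range, the genes nearest by Euclidean distance over the 4 log2 ratios were looked up. Nearest to Bcl2l11 A_52_P158527, among 21586 probes of other named genes, were Sike1 (distance 0.06), Ttbk2 (0.08) and Acsl4 (0.10). Nearest to Bcl2 A_52_P534870 were Maoa (0.07), Brms1l (0.07) and Macroh2a3 (0.08). The closest of 21586 probes over 4 values are close by selection, and a link of these genes with the 2 members was not tested.

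The wider death pathway was read through 8 further lists and 2 lists of E2F genes, 75 genes in all, of which 68 had a tested probe. At 1 probe per gene, 0 of the 68 were called in any of the 4 comparisons. The genotypes did not overlap at 15 of the 68 (22.1%), 5 with mutant higher and 10 with mutant lower, against 30.4% of all tested probes.

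Among survival relatives, Bcl2l2, which encodes Bcl-w, was the 1 of 3 tested with all 4 mice below the pool, at -0.34 and -0.44 in mutant mice and -0.11 and -0.58 in null mice. Its second probe did not share that, at 0.74 and 0.05 in mutant mice and -0.30 and 0.39 in null mice. Mcl1, a short-lived survival protein, was chosen after its values were seen, and read -0.58 and -0.57 in mutant mice against 0.11 and -0.44 in null mice. Its second probe read -0.52 and -0.10 in mutant mice against 0.80 and 0.17 in null mice. Of the pore formers, Bok read 0.15 and 0.03 in mutant mice and 0.02 and 0.20 in null mice, all above the pool. Bax and Bak1, chosen after their values were seen, did not share a direction. Bax read 0.74 and -0.13 in mutant mice and -0.62 and -0.27 in null mice, so both mutant mice were above both null mice. Bak1 read -0.52 and -0.33 in mutant mice and 0.17 and 0.08 in null mice, so both mutant mice were below both null mice, although its second probe read 0.34 and 0.12 in mutant mice and 0.10 and -0.02 in null mice.

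Among the other BH3-only genes, Bad was below the pool in all 4 mice at its brighter probe, at -0.22 and -0.31 in mutant mice and -0.40 and -0.15 in null mice. Its second probe read 0.17 and -0.10 in mutant mice and -0.04 and -0.09 in null mice. Bbc3 and Pmaip1 encode Puma and Noxa, both known p53 targets, and were chosen after their values were seen. Bbc3 read -0.58 and -0.44 in mutant mice against 1.02 and -0.09 in null mice. Pmaip1 read -0.23 and 0.04 in mutant mice against 1.01 and 0.03 in null mice. Both were high in null mouse 1 only, the mouse in which Bcl2l11 was also high. Their list had medians of -0.23 and -0.31 in mutant mice and of -0.40 and 0.03 in null mice. Bmf, chosen in the same way, read -1.62 in that same mouse at its brightest probe, against -0.02 and -0.23 there at its other 2.

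Of the 6 other relatives of the family, Bnip1 was below the pool in all 4 mice at its brightest probe, at -0.22 and -0.14 in mutant mice and -0.05 and -0.17 in null mice. Of its other 2 probes, A_52_P236642 read 0.07 and 0.12 in mutant mice and 0.26 and -0.17 in null mice. Bcl2l14, chosen after its values were seen, read -0.32 and -0.13 in mutant mice and 1.59 and -0.55 in null mice. Its second probe was likewise high in null mouse 1 only (2.08).

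Of 10 other caspase genes and nuclease subunits tested, Casp2 was above the pool in all 4 mice and nearly level among them, at 0.46 and 0.37 in mutant mice and 0.27 and 0.43 in null mice. Casp1 read 0.06 and 0.53 in mutant mice and 0.09 and 0.71 in null mice. Casp4 read 0.11 and 0.16 in mutant mice and 1.22 and 0.42 in null mice. These 2 inflammatory caspases are also expressed by macrophages, whose marker genes had their highest median in null mouse 2 and their lowest in null mouse 1. Casp1 was also highest in null mouse 2, while Casp4 was highest in null mouse 1. The part of such cells was not tested. Dffb, the nuclease that cuts DNA in dying cells, read -0.01 and -0.23 in mutant mice and -0.12 and -0.27 in null mice. Of 10 genes of mitochondrial release and its inhibitors, Diablo and Htra2, which antagonise the inhibitors of apoptosis, were below the pool in all 4 mice. Diablo read -0.25 and -0.33 in mutant mice and -0.17 and -0.25 in null mice, though its second probe was positive in 3 of 4. Htra2 read -0.23 and -0.46 in mutant mice and -1.12 and -0.09 in null mice. In the p53 group Trp53bp2, an activator of p53 at death genes, was below the pool in all 4 at both of its probes, and read -0.22 and -0.38 in mutant mice and -1.11 and -0.28 in null mice at the brighter. The death receptor arm, with 8 genes tested, had medians of -0.09 and 0.06 in mutant mice and of 0.03 and 0.11 in null mice. There Tnfrsf10b, the mouse receptor for TRAIL, read 0.05 and 0.09 in mutant mice and 0.27 and 0.01 in null mice, and its second probe 0.01 and 0.04 in mutant mice and 0.05 and -0.05 in null mice.

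Standard E2F targets were set beside the death genes. The 10 replication and cell cycle genes had median log2 ratios of 0.68 and 0.66 in mutant mice and of -0.03 and 0.76 in null mice. The 8 members at their brightest probe had medians of 0.16 and 0.16 in mutant mice and of 0.19 and 0.16 in null mice. In the 3 mice other than null mouse 1, the members stayed between -0.07 and 0.37, while Mcm6, a subunit of the replicative helicase, read 1.30 and 1.73 in mutant mice and 0.41 and 1.70 in null mice. Mcm3 read 1.43 and 1.37 in mutant mice and 0.20 and 1.63 in null mice. Pcna, the sliding clamp of DNA polymerase, read 0.84 and 0.72 in mutant mice and 0.65 and 0.79 in null mice. Ccne1, the cyclin of S phase entry, read 0.86 and 0.94 in mutant mice and 0.56 and 0.87 in null mice.

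All 4 mice were above the pool at 5 of the 10 E2F targets (Mcm3, Mcm6, Pcna, Ccne1 and Cdc6) and at 3 of the 8 members, at the brightest probe of each gene, against 16.7% of all tested probes. Cdc6 lay close to the pool, at 0.02 and 0.15 in mutant mice and 0.02 and 0.01 in null mice. The second probes of Mcm3 and Cdc6 were below the pool in null mouse 1 (-0.14 and -0.04). That of Ccne1 was nearer the pool, at 0.19 and 0.20 in mutant mice and 0.09 and 0.38 in null mice. Of the E2F genes, E2f1 read 0.27 and 0.52 in mutant mice and -0.30 and 0.36 in null mice, and its second probe 0.02 and -0.07 in mutant mice and -0.12 and 0.06 in null mice. E2f2 read 1.15 and 0.63 in mutant mice and 0.22 and 0.75 in null mice. E2f3 read 1.07 and 0.74 in mutant mice and 1.52 and 0.68 in null mice at its brightest probe. Its other 2 probes were nearer the pool, between -0.11 and 0.12 in mutant mice and between -0.08 and 0.48 in null mice. None of the 10 E2F targets and none of these E2F genes was called in limma against the pool or between the genotypes. The difference between the members and the E2F targets was not tested.

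**Figure D5:**
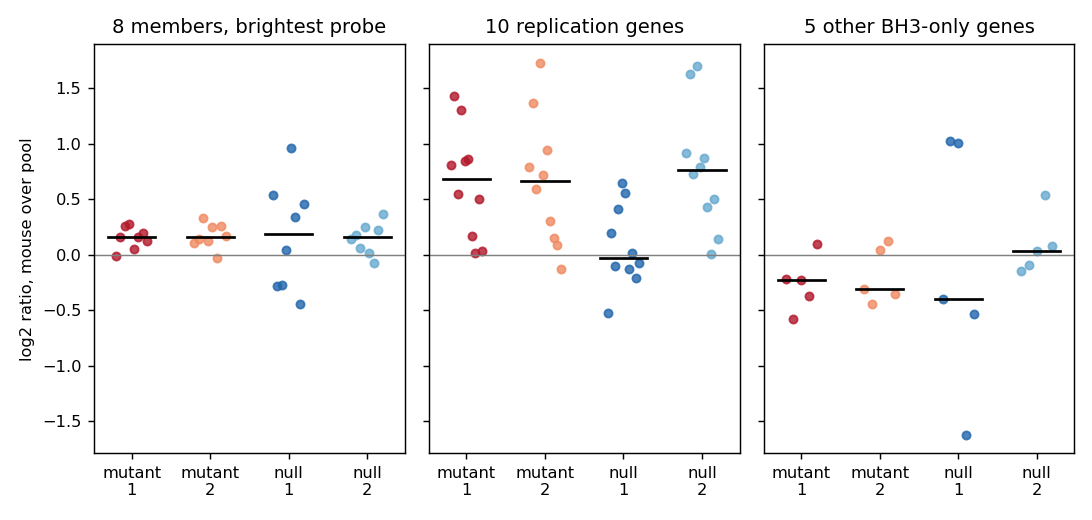
Log2 ratio of mouse over pool (y axis) for each gene (points) and the list median (bar) in mutant mice 1 and 2 and null mice 1 and 2, for the 8 members at their brightest probe (left), 10 replication and cell cycle genes known as E2F targets (middle) and 5 other BH3-only genes (right). The middle panel's medians are 0.68, 0.66, -0.03 and 0.76, and those of the left panel are 0.16, 0.16, 0.19 and 0.16.

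The authors' deposited table gives group means without a p-value. It held 31 lines for 6 of the 8 genes, with ratios from 1.14 to 2.42 and 16 lines higher in mutant. Lines of 1 gene repeat its probes and spots on the same arrays, so these are not counts of independent readings. In the authors' deposited table all 12 Bcl2 lines were higher in mutant, with the widest ratio, 2.42, on the line of the cDNA clone that A_52_P438280 reads. Most of the 12 lines are of transcript variant 1, which among the probes here only the 10-spot A_52_P534870 reads, so they are technical repeats. The 10 Bcl2l1 lines of the authors' deposited table were all lower in mutant, by ratios of 1.19 to 1.32. They are all of 1 transcript, which the 3 Bcl2l1 probes share, 1 of them printed as 10 spots. They are therefore repeats as well. The 3 Apaf1 lines of the authors' deposited table were higher in mutant (1.53 to 1.96), and those of Casp8ap2 and Trp73 were lower in mutant (1.14 to 1.28). Only the Apaf1 line at 1.53 is of the variant that A_51_P417701 reads. The others are of the variant read by the dim A_51_P368696 and by A_52_P621991, which was above background on no array. The Trp73 line at 1.28 is of the clone read by A_52_P193555, which was too dim to be tested. For Bcl2l11 the authors' deposited table had 1 line higher (1.59) and 2 lower (1.37 and 1.38). The higher line is of the clone read by A_52_P348214, which was too dim to be tested. The lower lines are of the transcript shared by the tested A_52_P158527 and the untested A_51_P484880. The directions of Bcl2, Apaf1 and Casp8ap2 were also those of the fit here, which called none of them. That of the tested Trp73 probe (-0.07) was shared too. For Bcl2l1, probes A_52_P148861 (-0.27) and A_52_P510877 (-0.19) shared the direction and A_51_P299454 (0.02) did not. The authors' deposited table and the fit rest on the same 4 arrays, so a shared direction is no second reading.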

How the data were processed

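Prostate RNA of 4 mice was measured on 4 two-colour arrays from 1 slide and 1 scan, so position on the slide and genotype cannot be told apart. The deposited scanner files give spot brightness as intensity and a log10 ratio, read with Agilent Feature Extraction 9.5.1.1 per the file headers, or 8.5 per the submitters' processing notes. The authors' deposited table gives group means and their ratio, on a scale that is not given in the sources used here.

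Mean intensities were corrected with normexp (offset 50) and loess within each array in limma 3.58.1 (R 4.3.3). Control spots had weight 0, spots with an outlier flag were left out (5 readings of member spots) and spots of a probe were averaged. Tested probes had a value on every array and stood well above background either in both mice of 1 genotype or in all 4 readings of the pool, which left 24851 of 41174. The log2 ratios were fitted with lmFit and eBayes, 1 term per genotype, and p-values were adjusted by Benjamini-Hochberg over all tested probes, with a threshold of 0.05. The number of arrays limits the precision. The fit was checked on simulated data.

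Mice with the same replicate number did not deviate together (correlation of deviations 0.0035), so no pairing was used. Every member probe is named. By rule, other genes are named when all 4 mice lay on 1 side of the pool, up to 4 per list by mean ratio. Rb1, Trp53 and E2f1 are always named. Mcl1, Bax, Bak1, Bbc3, Pmaip1, Bmf and Bcl2l14 fall outside that rule and were chosen after their values were seen. Pbsn, Sbp and the genes nearest in pattern to a member are also outside it. The members and lists were chosen with earlier results of these data known. Alternatives were the scanner's processed signals, median centring, an offset of 10, no filter, a stricter filter, 1 probe per gene, a replicate block and leaving out each mouse.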

Additional observations from a re-analysis of the deposited data

How the results depend on the processing

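No member probe was called under 10 of the 11 alternatives, in any of the 4 comparisons. The exception was centring each array on its median, which moved the median of all probes by 0.38 (mutant over null), 0.60 (mutant over pool), 0.14 (null over pool) and 0.37 (all 4 over pool). It called 4250 probes for all 4 mice over the pool, 3 of them members: Casp8ap2, Bcl2l11 and Bcl2l1 A_52_P148861, the last with 0.76 before that shift is taken off. For all probes over the pool in all 4 mice, other counts than 3 were 6 with processed signals, 20 with an offset of 10, 5 with the stricter filter and 0 with no filter or with the replicate block. Mutant over pool gave 3 calls with an offset of 10 and 2 with the stricter filter or 1 probe per gene, and null over pool gave 2 with an offset of 10 or the stricter filter, in place of 0. Leaving out each mouse gave 0 to 9 calls for mutant over null, 0 to 2 for mutant over pool, 0 to 383 for null over pool and 0 to 324 for all 4 over pool. The high ends came without null mouse 2, and for mutant over pool equally without null mouse 1. The replicate block changed no member call.

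Of 544 fitted member values under alternatives, 34 changed sign. For mutant over null, median centring gave 0.22 at Casp8ap2, 0.22 at Bcl2l11, 0.47 at Trp73 and 0.26 at Bcl2l1 A_52_P148861; taken relative to the shift, of these 4 only Trp73 (0.08) stayed positive. For null over pool it gave 0.27 at Casp9, 0.01 at Apaf1 A_51_P417701, 0.14 at Bcl2 A_52_P534870 and -0.05 at Bcl2 A_52_P438280, and for mutant over pool -0.12 at Apaf1 A_51_P368696. Processed signals gave -0.02 at Trp73 for mutant over pool and, for all 4 over pool, -0.03 at Apaf1 A_51_P417701, 0.12 at Apaf1 A_51_P368696 and -0.07 at Bcl2 A_51_P380013, where an offset of 10 gave -0.02. The cause was not tested.

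Leaving out each mouse gave signs on both sides of 0 at some probes. For mutant over null the ranges were -0.02 to 0.43 at Casp9 A_52_P663602, -0.05 to 0.16 at Bid A_52_P574653, -0.81 to 0.13 at Bcl2l11 A_52_P158527, -0.28 to 0.14 at Trp73 A_52_P410636 and -0.07 to 0.11 at Bcl2l1 A_51_P299454. For mutant over pool the ranges were -0.01 to 0.11 at Casp8ap2 A_51_P517096, -0.04 to 0.11 at Apaf1 A_51_P368696, -0.03 to 0.16 at Trp73 A_52_P410636 and -0.04 to 0.38 at Bcl2 A_51_P380013. For null over pool the ranges were -0.28 to 0.18 at Casp9 A_52_P663602, -0.27 to 0.06 at Apaf1 A_51_P417701, -0.07 to 0.34 at Trp73 A_52_P410636, -0.44 to 0.22 at Bcl2 A_52_P534870 and -0.04 to 0.07 at Bcl2 A_52_P438280. For all 4 over pool the ranges were -0.07 to 0.16 at Casp9 A_52_P663602, -0.10 to 0.22 at Bcl2 A_52_P534870 and -0.10 to 0.11 at Bcl2 A_51_P380013.

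With 2 mice per genotype, 1 pool and dyes not swapped, the data do not tell apart the differences that lie inside the 95% interval of a probe. Dim probes (Apaf1 A_51_P368696 and Bcl2 A_52_P438280) rest on signals near background. Bcl2l1 A_51_P299454 was dim too, with background-subtracted red signals of 20.31 to 71.95, though well above background in every reading.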
